A study of Rattus norvegicus with 12 samples.

Results

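The genes described here encode components and a regulator of the complement system, and were taken as the rows of the deposited tables whose gene symbol is C1qa, C1qb, C1qc, C1r, C1s, Serping1, C3, Cfb or Cfd. All 9 were found among the 22850 features of the tables. They were measured by RNA sequencing in primary atrial fibroblasts of newborn Sprague-Dawley rats, isolated by differential adhesion to the dish and not sorted. Every culture received angiotensin II (AngII, 1 μmol/L), a peptide hormone that activates cardiac fibroblasts. The AngII group received nothing else, the AngII+HNG group also received HNG (10 μmol/L), an analogue of the mitochondrial-derived peptide humanin, and the AngII+MOTS-c group also received MOTS-c (5 μmol/L), another mitochondrial-derived peptide. Either peptide was added 1 h before AngII, RNA was taken after 48 h, and each group held 4 libraries. No culture without AngII was sequenced, so the effect of AngII itself on these genes cannot be read from the data.

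Complement is a cascade of plasma and tissue proteins that tags cells and debris for removal. In its classical pathway, C1q binds a target and activates the proteases C1r and C1s, which cleave C4 and C2 and so lead to cleavage of C3, the central component. Factor B and factor D form the alternative pathway, which amplifies C3 cleavage, and the C1 inhibitor encoded by Serping1 inactivates C1r and C1s. Most plasma complement is made by the liver, while tissue macrophages are a main source of C1q and fibroblasts are known to make C1r, C1s and C1 inhibitor.

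The labelled cell type was checked against markers. Col1a1, a collagen of fibroblasts, had a lowest value of 22853 CPM over the libraries (CPM, a gene's reads relative to its library's TMM-scaled total), while the hepatocyte gene Alb had 0 counts throughout. In AngII, Col1a2 and Col3a1 averaged 15246 and 20536 CPM. The other fibroblast genes were lower, with Dcn at 116, Lum 160, Pdgfra 225, Thy1 114 and Tcf21 136 CPM. The cultures also held transcripts of other cells, several of them above these lower fibroblast genes. Myh6 and Tnnt2, defining genes of cardiomyocytes, averaged 2011 and 917 CPM in AngII, and the cardiomyocyte gene Nppa averaged 2071 CPM. Of the smooth muscle and pericyte genes, Notch3 averaged 452, Myh11 182, Cspg4 81.9, Rgs5 5.01 and Kcnj8 2.43 CPM. Cdh5 and Pecam1, defining genes of endothelial cells, averaged 12.8 and 10.4 CPM. The macrophage genes Adgre1, Cd68, Csf1r and Ptprc averaged 3.37, 20.6, 53.1 and 15.6 CPM. Library totals ran from 27960586 to 38322354 counts, so 3 counts correspond to between 0.0787 and 0.107 CPM.

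The 9 genes spanned a wide range of levels. On the FPKM scale, which allows for transcript length, the mean over the 12 libraries was 110 for C1r, 32.0 for C1s and 14.0 for Serping1. C1r ranked 558 among the 18384 features with an FPKM above 0. The 3 chains of C1q followed, at 5.26 FPKM for C1qa, 3.41 for C1qb and 2.18 for C1qc. Cfd reached 0.628 FPKM and Cfb 0.286, and C3 was the lowest of the 9 at 0.0835 FPKM, rank 14793. Thus the proteases and the inhibitor of the C1 complex stood above C1q, and C1q above the central component and the alternative pathway. Each gene exceeded the next in all 12 libraries, except that Cfd exceeded Cfb in 9. The ranges over libraries overlapped between C1qa and C1qb, between C1qb and C1qc and between Cfd and Cfb. C3 was read from 6 to 26 counts a library, Cfb from 12 to 39 and Cfd from 10 to 31, which limits the precision of all 3.

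**Figure D1:**
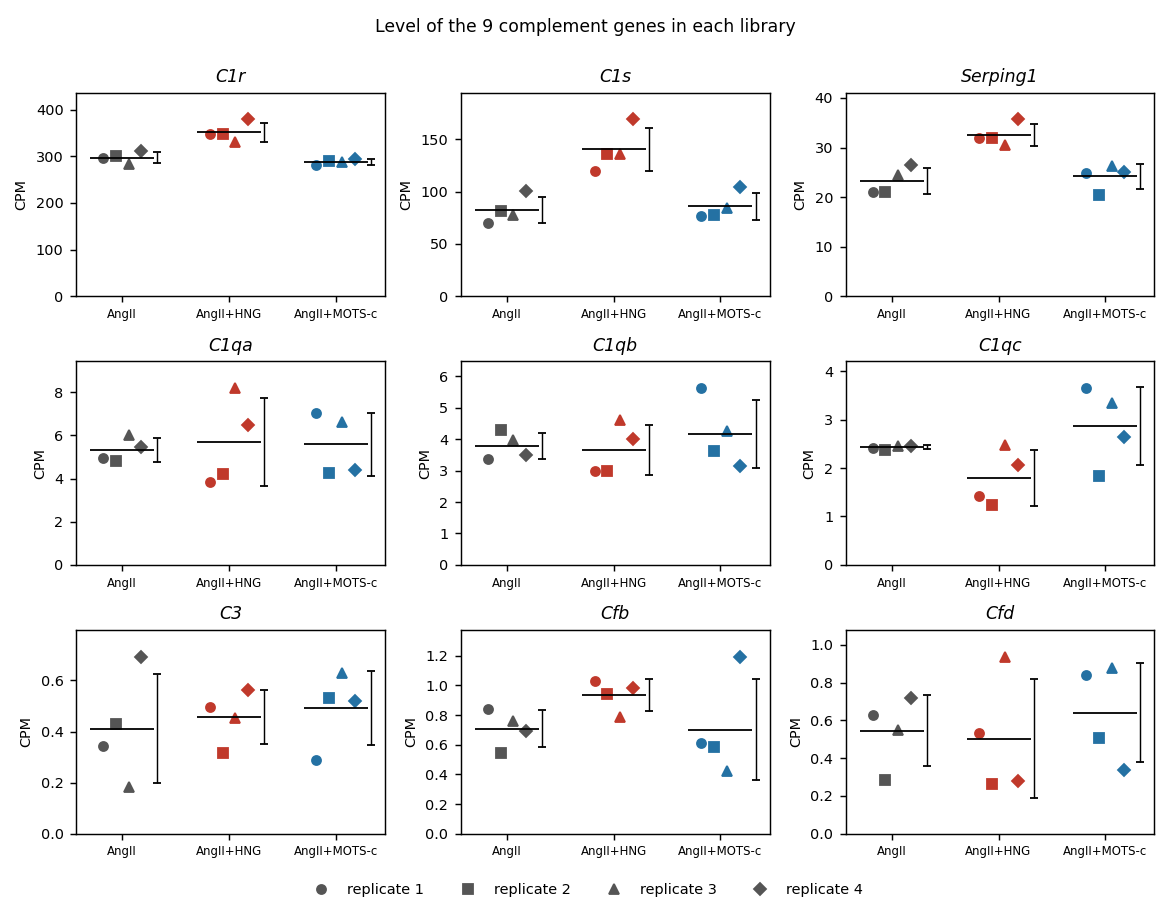
Level of each of the 9 genes in CPM (vertical axis, from 0) in each library of the 3 groups, with marker shape for the replicate, a line at the mean and a bar of 1 SD. All 4 AngII+HNG libraries lie above all other libraries for C1r, C1s and Serping1, and the groups overlap for the other 6 genes.

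To ask whether HNG changed these genes in AngII-treated cells, AngII+HNG was compared with AngII. C1s, C1r and Serping1 rose, and none of the 9 was called lower. Thus 3 of 9 were called by the quasi-likelihood test of edgeR at an adjusted p under 0.05, against 5.98% of the 14524 genes tested in either direction and 3.4% called higher. The libraries of the groups did not overlap for the same 3 genes, against 13.6% of all genes tested. All 9 had passed the filter on low counts. The median log2 fold change was 0.13 over the 9 and 0.0043 over all genes tested.

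C1s, the protease that cleaves C4 and C2, changed most. Its level was 70.4, 81.3, 77.7 and 101 CPM in the 4 AngII libraries. In AngII+HNG it was 120, 136, 136 and 169 CPM. The lowest AngII+HNG library was above the highest AngII library. The mean rose from 82.5 ± 12.9 to 140 ± 20.7 CPM (SD, n = 4), 1.70-fold with a 95% interval of 1.45 to 2.01 (log2 fold change 0.77, SE 0.11, adjusted p = 0.00155 by edgeR). In each of the 3 groups, replicate 4 held the highest C1s level. The same was true of C1r and of the summed macrophage genes described below. That sum was 362, 521 and 356 CPM in replicate 4 of AngII, AngII+HNG and AngII+MOTS-c.

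C1r, which activates C1s, rose less. Its level was 295, 300, 283 and 311 CPM in AngII and 347, 347, 331 and 379 CPM in AngII+HNG. Here too every AngII+HNG library exceeded every AngII library. The change was 1.18-fold with an interval of 1.10 to 1.27 (log2 fold change 0.24, SE 0.0464, adjusted p = 0.00853 by edgeR). In the RefSeq annotation of GRCr8, C1r overlaps a long non-coding RNA gene, LOC102553847. Only the spans of the genes were compared, not their exons. Whether reads were counted by strand is not given in the sources used here, so reads in a shared stretch may not be told apart.

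Serping1, which encodes the C1 inhibitor, rose as well. It measured 21.1, 21.0, 24.4 and 26.4 CPM in AngII and 31.9, 31.9, 30.6 and 35.7 CPM in AngII+HNG. The groups were again separate. The change was 1.40-fold with an interval of 1.25 to 1.58 (log2 fold change 0.49, SE 0.0783, adjusted p = 0.00327 by edgeR). The cultures are bulk samples, in which more cells of a type and more RNA per cell cannot be told apart.

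The rise was unequal among the 3 genes. The ratio of C1s to C1r in FPKM was 0.243 ± 0.0309 in AngII and 0.350 ± 0.0368 in AngII+HNG (SD, n = 4, exact two-sided permutation test, p = 0.0286, the smallest that 70 divisions allow). The ratio of Serping1 to C1r was 0.116 ± 0.0126 in AngII and 0.137 ± 0.00143 in AngII+HNG (exact two-sided permutation test, p = 0.0286). These ratios were chosen after the values were seen, and the p-values are not adjusted.

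The chains of C1q, the recognition part of the same complex, did not pass the test. C1qa measured 4.97, 4.79, 6.02 and 5.47 CPM in AngII and 3.84, 4.22, 8.19 and 6.47 CPM in AngII+HNG. C1qb measured 3.36, 4.28, 3.95 and 3.49 CPM in AngII and 2.99, 2.99, 4.59 and 3.99 CPM in AngII+HNG. In both genes, AngII+HNG replicates 1 and 2 were below every AngII library and replicate 3 was above. Their log2 differences were 0.10 (95% interval -0.34 to 0.54, adjusted p = 0.843 by edgeR) and -0.05 (-0.39 to 0.30, adjusted p = 0.916).

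C1qc was nearly constant in AngII, at 2.42, 2.37, 2.46 and 2.45 CPM. In AngII+HNG it was 1.42, 1.23, 2.48 and 2.05 CPM. Its log2 difference was -0.43 (95% interval -0.87 to 0.01, adjusted p = 0.255 by edgeR), and AngII+HNG replicate 3 was above every AngII library. Without AngII+HNG replicate 2 the difference was -0.28, and without replicate 3 it was -0.63, neither called. The intervals of the 3 chains allow changes of up to 1.46-fold for C1qa, and down to 0.549-fold for C1qc.

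C3, Cfb and Cfd did not pass the test either. C3, the central component, measured 0.342, 0.428, 0.182 and 0.693 CPM in AngII and 0.498, 0.315, 0.453 and 0.562 CPM in AngII+HNG. Cfb, encoding factor B, measured 0.841, 0.542, 0.760 and 0.693 CPM in AngII and 1.03, 0.944, 0.786 and 0.984 CPM in AngII+HNG. Cfd, encoding factor D, measured 0.631, 0.285, 0.547 and 0.720 CPM in AngII and 0.533, 0.262, 0.937 and 0.281 CPM in AngII+HNG. The groups overlapped for all 3 genes. The fold intervals were 0.619 to 1.94 for C3, 0.945 to 1.84 for Cfb and 0.481 to 1.71 for Cfd, so the data do not tell apart changes within these ranges (adjusted p = 0.900, 0.349 and 0.902 by edgeR).

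**Figure D2:**
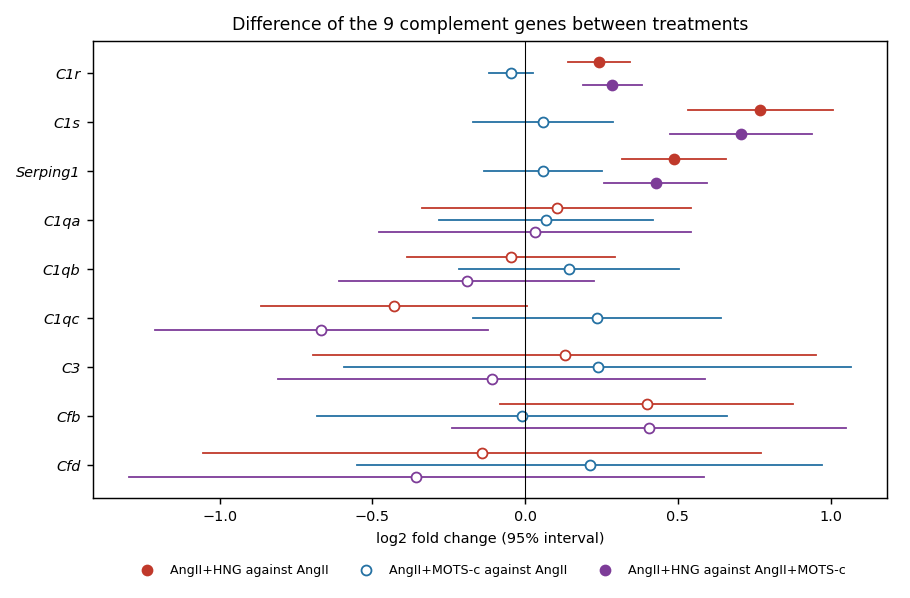
Log2 fold change (horizontal axis) of the 9 genes in the 3 comparisons, with 95% intervals; filled points have an adjusted p under 0.05 in edgeR. C1r, C1s and Serping1 are filled in both comparisons of AngII+HNG, and no gene is filled for AngII+MOTS-c against AngII.

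The same question was asked of MOTS-c. Against AngII, 0 of 9 genes were called by edgeR and 0 had an unadjusted p under 0.05, and DESeq2 also called 0. Of the 14488 genes tested, 0.0069% were called. The groups did not overlap for 0 of 9, against 3.44% of all genes tested. With MOTS-c, C1r measured 281, 289, 287 and 294 CPM, C1s 77.2, 77.8, 84.2 and 105 CPM, and Serping1 24.9, 20.5, 26.4 and 25.1 CPM. These libraries overlapped those of AngII in all 3 genes. The fold intervals were narrow, at 0.922 to 1.02 for C1r, 0.889 to 1.22 for C1s and 0.911 to 1.19 for Serping1. Each lay below the fold change measured with HNG for the same gene.

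The C1q chains varied among the MOTS-c cultures. C1qa measured 7.04, 4.26, 6.63 and 4.38 CPM, C1qb 5.62, 3.62, 4.24 and 3.16 CPM, and C1qc 3.65, 1.84, 3.33 and 2.63 CPM. Replicate 1 was the highest for all 3 chains. Their log2 differences from AngII were 0.07, 0.14 and 0.23, with adjusted p-values of 0.976, 0.950 and 0.939 by edgeR. That of C1qc was 0.091 without AngII+MOTS-c replicate 1 and 0.40 without replicate 2, neither called. C3 ran from 0.290 to 0.631 CPM, Cfb from 0.421 to 1.19 CPM and Cfd from 0.337 to 0.876 CPM.

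The peptides were then compared with each other, at the different doses given above. C1r, C1s and Serping1 were higher in AngII+HNG than in AngII+MOTS-c. Thus 3 of 9 genes were called, against 4.41% of the 14448 genes tested in either direction and 2.64% called higher. The libraries did not overlap for these 3 genes, against 12.5% of all genes tested. The fold was 1.63 for C1s (interval 1.39 to 1.92, adjusted p = 0.00301 by edgeR), 1.22 for C1r (1.14 to 1.30, adjusted p = 0.0033) and 1.34 for Serping1 (interval 1.20 to 1.51, adjusted p = 0.00817). This comparison uses the same AngII+HNG libraries as the first, so the calls are not independent of it. C1qc was lower in each AngII+HNG library than the AngII+MOTS-c mean of 2.86 CPM, but the log2 difference of -0.67 (SE 0.252) did not pass the test (adjusted p = 0.165 by edgeR).

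The 3 chains of C1q were set beside each other over the 12 libraries. Pearson's r of log2 CPM was 0.81 for C1qa with C1qb, 0.67 for C1qa with C1qc and 0.73 for C1qb with C1qc. With C1r, r was -0.07 for C1qa, -0.33 for C1qb and -0.65 for C1qc. With C1s, it was 0.08, -0.24 and -0.49 for the same chains. C1r and C1s had an r of 0.92 with each other. After each group's mean was removed, r was -0.23, -0.27 and -0.14 for the chains with C1r and 0.12, -0.11 and 0.18 with C1s, so that of C1qc with C1s changed sign. Among the chains it was then 0.85, 0.91 and 0.78, in the order given above, and C1r with C1s had 0.69. These values describe libraries that share groups and preparation, and no p is given. Replicate 4 was the highest in every group for C1r and C1s, which enters their r after the group means were removed.

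Because macrophages are a main source of C1q, macrophage genes are given beside the chains. Of 12 macrophage genes, 11 were tested, and 4 rose with HNG (Cd68, Lyz2, Mrc1 and Ptprc), against 3.4% of all genes tested, with a median log2 fold change of 0.33 over the list. Against AngII+MOTS-c, 5 were higher in AngII+HNG, where 2.64% of all genes tested were called higher. Their summed level was 295 to 362 CPM in AngII, 402 to 521 CPM in AngII+HNG and 292 to 356 CPM in AngII+MOTS-c. Lyz2, encoding a lysozyme, averaged 102 CPM in AngII and 172 CPM in AngII+HNG, a 1.68-fold change (adjusted p = 0.000262 by edgeR). Adgre1, which encodes the F4/80 antigen, averaged 3.37 and 2.62 CPM and was not called (log2 difference -0.36, adjusted p = 0.185). Csf1r, the receptor of the macrophage growth factor, was not called either (log2 difference 0.17, adjusted p = 0.400). The summed level of the C1q chains was 3.67 ± 0.386% of that of the macrophage genes in AngII and 2.48 ± 0.627% in AngII+HNG (SD, n = 4, exact two-sided permutation test, p = 0.0571, a ratio chosen after the values were seen). Over the 12 libraries and the 12 macrophage genes, r ran from 0.04 (Cd14) to 0.69 (Adgre1) for C1qa, from -0.32 (Cd14) to 0.71 (Adgre1) for C1qb and from -0.45 (Lyz2) to 0.83 (Adgre1) for C1qc. For the genes that rose, it ran from -0.68 (Adgre1) to 0.92 (Lyz2) for C1r, from -0.61 (Adgre1) to 0.98 (Lyz2) for C1s and from -0.44 (Adgre1) to 0.96 (Mrc1) for Serping1. These values include the difference between the groups. After each group's mean was removed, r ran from 0.047 to 0.93 for C1qa, from -0.21 to 0.82 for C1qb and from 0.20 to 0.82 for C1qc, each highest with Adgre1. It ran from -0.51 (Adgre1) to 0.85 (Csf1r) for C1r, from -0.15 (Adgre1) to 0.94 (Laptm5) for C1s and from 0.10 (Tyrobp) to 0.85 (Mrc1) for Serping1. Thus C1qc with Lyz2 turned from -0.45 to 0.52, and Serping1 with Adgre1 from -0.44 to 0.28. The part of macrophage transcripts in the change of C1r, C1s and Serping1 was not tested.

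**Figure D3:**
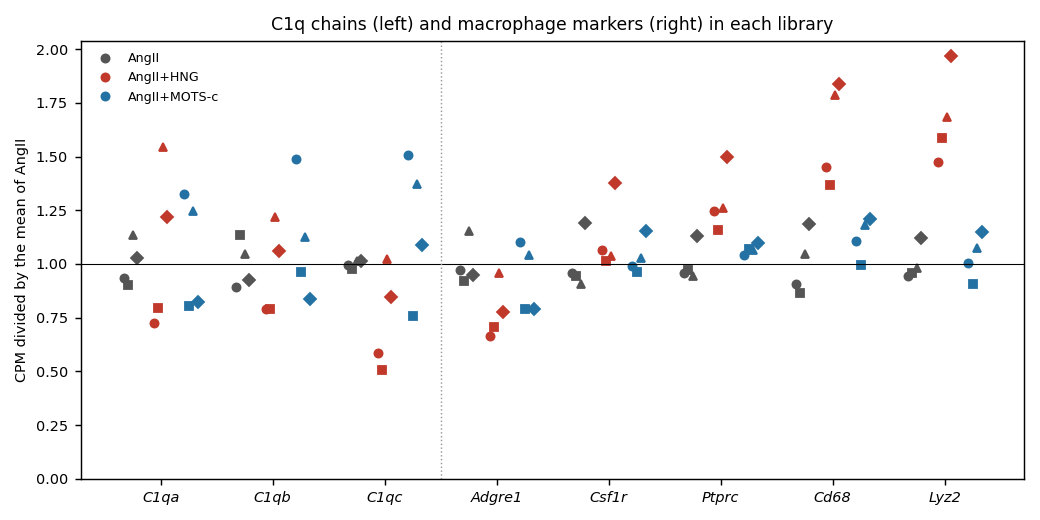
CPM of the C1q chains and of 5 macrophage genes in each library, divided by the mean of the 4 AngII libraries (vertical axis, from 0), with colour for the group and marker shape for the replicate as in the plot of levels. Cd68, Lyz2 and Ptprc lie above the AngII libraries in all AngII+HNG libraries, while the C1q chains and Adgre1 do not.

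Markers of other cell types were counted in the same way, and their counts are to be read against the share of all genes tested that was called with HNG, 5.98% in either direction and 3.4% higher. With HNG, 3 of 7 endothelial genes rose (Egfl7, Kdr and Tie1), and the summed level of the 7 was 53.8 to 61.6 CPM in AngII, 69.1 to 75.7 CPM in AngII+HNG and 56.4 to 61.2 CPM in AngII+MOTS-c. In addition, 2 of 5 smooth muscle and pericyte genes fell (Myh11 and Notch3), and 2 of 8 fibroblast genes rose (Thy1 and Tcf21). None of 6 cardiomyocyte genes was called. Of the 3 hepatocyte genes 1 was tested and not called, and the 3 lymphocyte genes were too low to test. Against AngII, 0 genes of these lists were called with MOTS-c by edgeR. Interferon and inflammatory cytokines are known inducers of complement genes, so their response genes were counted too. With HNG, 0 of 15 tested interferon-response genes were called higher and 1 lower (Ifit2), while 13 had a log2 difference above 0 and the median was 0.21. Against AngII+MOTS-c, 1 of these genes (B2m) was called higher in AngII+HNG, against 2.64% of all genes tested, with a median of 0.16. Of 12 tested genes of the NF-kB, IL-1 and IL-6 response, 0 were called higher with HNG and 1 lower (Ccl2), with 7 above 0 and a median of 0.063. The part of these cell types and programmes in the change of C1r, C1s and Serping1 was not tested.

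The remaining genes of the cascade were examined by role. Of 47 other complement genes, 46 were in the tables and 29 could be tested. With HNG 8 rose and 0 fell, against 5.98% of all genes tested called and 3.4% called higher, with a median log2 fold change of 0.26. Among activating components, C4a, a copy of C4, rose 1.73-fold (13.6 to 23.4 CPM, adjusted p = 0.00205 by edgeR). C2, which joins C4 in the C3 convertase, rose 1.33-fold (adjusted p = 0.0279). C1rl, a relative of C1r, rose 1.35-fold (adjusted p = 0.0234). In the RefSeq annotation of GRCr8, the span of C2 overlaps that of the protein-coding gene Zbtb12. The span of C1rl overlaps those of the non-coding RNA genes LOC120102383 and LOC102553847. Reads in a shared stretch of these genes may not be told apart either. Thus C1r, C1s, C2 and C4a were called higher with HNG, while the C1q chains, C3 and the other C4 copy, C4b, were not called. Cfp, encoding properdin, averaged 4.95 CPM in AngII and 5.06 CPM in AngII+HNG. C4a and C4b are near-identical copies whose reads the counting may have split, so the values of each are uncertain. C4b had a log2 difference of 0.55 (adjusted p = 0.172).

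Among terminal components, which form the membrane attack complex, C7 was the most abundant. It measured 228, 225, 264 and 364 CPM in AngII and 468, 448, 499 and 640 CPM in AngII+HNG. These groups did not overlap, and the change was 1.90-fold (log2 fold change 0.93, adjusted p = 0.00254 by edgeR). C6 rose 2.81-fold from 0.257 CPM (adjusted p = 0.0102), on 6 to 26 counts a library. C8g was not called, at 2.53 and 3.11 CPM. C5, C8a and C8b had 0 counts in all 12 libraries, as did Mbl1, Mbl2, Cpn1 and Cpn2. A count of 0 allows up to 3 counts, or 0.107 CPM in the shallowest library.

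Of 7 tested receptors, 3 rose: C3ar1, the receptor of C3a, 1.87-fold (adjusted p = 0.00174 by edgeR), C5ar2 1.55-fold (adjusted p = 0.0019) and Itgb2, a chain of complement receptor 3, 1.43-fold (adjusted p = 0.00543). C5ar1 and Cd93 were not called, with log2 differences of 0.43 and -0.20. None of 8 tested regulators other than Serping1 and none of 6 tested lectin pathway genes was called. Clu, C1qbp and Cr1l, the regulators with the highest FPKM, had log2 differences of 0.05, 0.02 and 0.04. Colec12, Masp1 and Masp2 had log2 differences of 0.15, -0.02 and -0.11.

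For MOTS-c against AngII, 0 of these 29 genes were called by edgeR, and 1 (Cd93) had an unadjusted p under 0.05. For AngII+HNG against AngII+MOTS-c, 6 were higher and 0 lower (C2, C4a, C7, C3ar1, C5ar2 and Itgb2), against 4.41% of all genes tested called and 2.64% called higher. With limma on log2(FPKM + 1) and no filter on low values, 2 were called. C1rl and C6 had log2 differences of 0.34 and 0.73 there (adjusted p = 0.109 and 0.154 by edgeR).

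**Figure D4:**
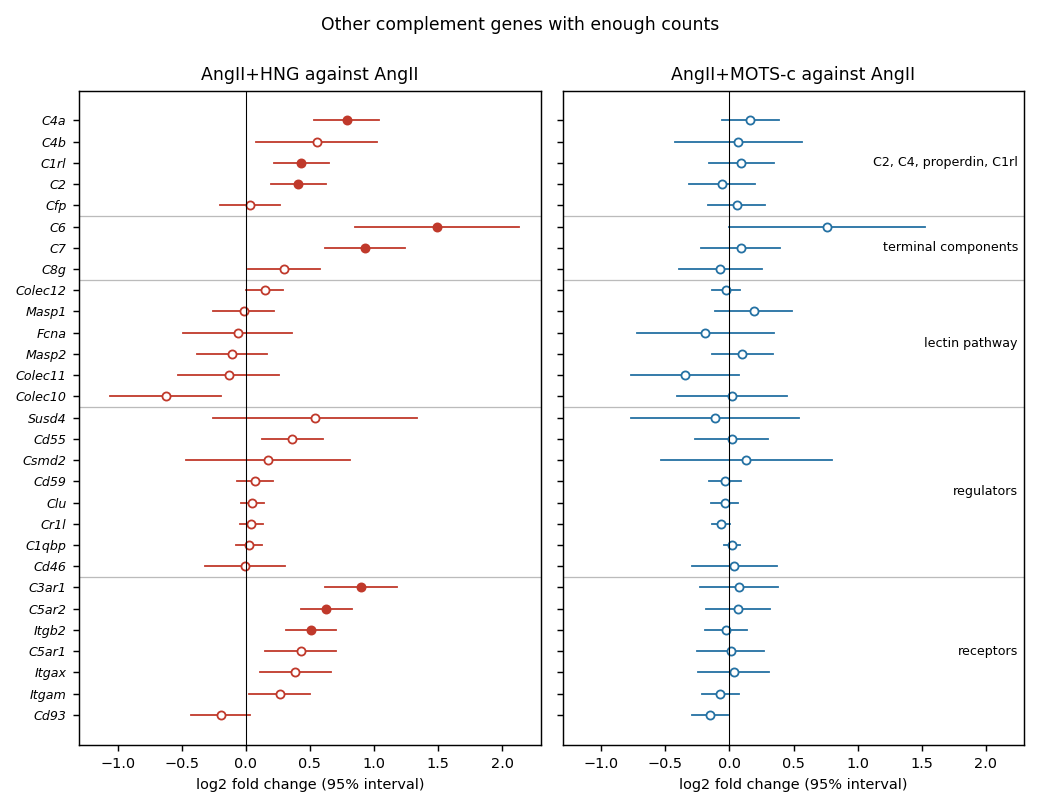
Log2 fold change (horizontal axis, with 95% intervals) of the 29 other complement genes with enough counts, in AngII+HNG against AngII on the left and AngII+MOTS-c against AngII on the right, grouped by role; filled points have an adjusted p under 0.05 in edgeR. On the left 8 genes are filled, all to the right of 0, and on the right none is.

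The position of the genes gives a further description. In the RefSeq annotation of GRCr8, C1rl, C1r and C1s lie next to each other on chromosome 4. C1qb, C1qc and C1qa lie next to each other on chromosome 5. C2 and Cfb are neighbours on chromosome 20, of which C2 was called with HNG and Cfb was not. Promoter sequences from RefSeq were used for 5 of the 9 genes (C1r, C1qa, C1qb, C3 and Cfd), and those of the others were not analysed here. The 250 bases before the start of C1r, which rose with HNG, and of C1qa and C1qb, which did not pass the test, are shown on the strand of the gene, with motif matches in capitals.
C1r (GRCr8, chr4:159098763-159099012, plus strand): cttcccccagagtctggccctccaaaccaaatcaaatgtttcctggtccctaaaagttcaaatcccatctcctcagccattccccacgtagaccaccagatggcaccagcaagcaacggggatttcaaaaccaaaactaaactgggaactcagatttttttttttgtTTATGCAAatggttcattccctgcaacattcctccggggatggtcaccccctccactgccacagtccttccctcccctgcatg
C1qa (GRCr8, chr5:154419934-154420183, minus strand): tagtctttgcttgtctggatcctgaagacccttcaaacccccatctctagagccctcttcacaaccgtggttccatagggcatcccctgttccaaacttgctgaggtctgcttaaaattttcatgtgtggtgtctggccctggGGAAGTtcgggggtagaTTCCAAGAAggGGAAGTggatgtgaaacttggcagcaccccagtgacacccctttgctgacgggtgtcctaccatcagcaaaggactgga
C1qb (GRCr8, chr5:154407828-154408077, minus strand): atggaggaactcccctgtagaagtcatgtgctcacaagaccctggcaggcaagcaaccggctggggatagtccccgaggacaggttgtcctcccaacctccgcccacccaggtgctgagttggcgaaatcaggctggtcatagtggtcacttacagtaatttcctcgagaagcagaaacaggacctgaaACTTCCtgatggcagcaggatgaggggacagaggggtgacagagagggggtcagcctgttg

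The motifs were searched on both strands. They were the interferon-stimulated response element (ISRE), the STAT element TTCNNNGAA, the C/EBP element TTGCNNAA, the ETS core GGAAGT and the E-box CACGTG. The C1r window held 1 match, to the C/EBP element, beginning 83 bases before the start. The C3 window, not shown, also held 1 match to this element, 104 bases before the start, and C3 was not called. The element occurred in 9.22% of 33465 windows of the same length. The C1qa window held the ETS core at 107 and 79 bases before the start, with the STAT element between them at 90 bases. The C1qb window held the ETS core at 61 bases. The ETS core occurred in 19.2% of all windows and the STAT element in 7.67%. The ISRE, present in 3.41% of windows, and the E-box, present in 5.59%, were not among the letters of the 5 windows, and the Cfd window held none of the 5 motifs. A match describes the letters only.

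Across all tested genes, those most like each of the 9 over the 12 libraries were found by Pearson's r of log2 CPM, as a description with no p. This r includes the difference between the groups. For C1r they were Glis2 (0.98), Ctsa (0.97) and Ahnak2 (0.97). For C1s they were Htra3, Ctsd and Dnm1 (each 0.98), and for Serping1 Emb (0.97), Impdh2 (0.96) and Mrc1 (0.96). Ctsa and Ctsd encode lysosomal proteases. For C1qa they were Prpf31 (0.89), Agtr1a (0.88), which encodes an AngII receptor, and Ceacam4 (0.88). For C1qb they were Prpf31 (0.90), Slc26a11 (0.88) and Ackr3 (0.85), and for C1qc Synpo (0.94), Maged2 (0.90) and Vash1 (0.89). For the sparse genes they were Nans, Lrrc28 and Fgfr4 (C3), Rspo3, Il20rb and Nlrp1a (Cfb), and MGC95210, Btbd10 and Atn1 (Cfd), with r from 0.86 to 0.92, which at so few counts is no finding.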

How the data were processed

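Libraries were made with an mRNA kit and sequenced as paired ends by the authors. The deposited tables hold raw read counts and FPKM (fragments scaled to transcript length and library total) per gene. The submitters' processing notes name HISAT2, Picard 1.41 and SAMtools 0.1.18. The counting tool, genome build and use of strand are not given in the sources used here.

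Each comparison was fitted to the deposited counts of its own 8 libraries with edgeR 4.0.16 in R 4.3.3 (TMM scaling, filterByExpr, quasi-likelihood F test), with Benjamini-Hochberg adjustment over all tested genes and a threshold of 0.05. Groups came from the sample titles. CPM used TMM-scaled totals of the 12 libraries, and FPKM served for levels between genes. The test was checked on simulated counts. Alternatives used DESeq2 1.42.0, limma 3.58.1, other filters, blocks and left-out libraries. In each group the library names of replicates 2 and 3 share 1 number, so p-values may in part measure technical spread. The chi-square of read counts per gene between them was 4.40 in AngII, 14.3 in AngII+HNG and 6.79 in AngII+MOTS-c. Only in AngII was this the lowest of the group's pairs. Whether they are separate cultures was not tested. The members and gene lists were chosen with earlier results of these data known. Named genes were the 9 members, and complement genes that were called or among the 3 highest in FPKM of their role. Defining and other listed cell markers were also named. So were the 3 genes most correlated with each member (symbols beginning LOC, RGD or AABR left out). Lists covered complement roles, 7 cell types and 2 response programmes. An item withheld for evaluation is not reported here.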

Additional observations from a re-analysis of the deposited data

How the results depend on the processing

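C1r, C1s and Serping1 were the members called for AngII+HNG against both other groups in the report, and the count of members called was 3, 0 and 3 in the 3 comparisons under all 21 alternatives of each. No member's call changed. Deviations of same-numbered samples correlated at -0.028 to 0.119 for AngII+HNG against AngII, 0.020 to 0.134 for AngII+MOTS-c against AngII and -0.0096 to 0.245 for AngII+HNG against AngII+MOTS-c. Replicate 4 gave the highest value each time, and in the last comparison 3 of 4 pairs were over 0.1. Since no comparison had every pair over 0.1, the numbers were not taken as pairs. With the replicate block, the members called stayed at 3, 0 and 3, and the other complement genes called for AngII+HNG against AngII numbered 11 rather than 8. Blocking by the number in the library name gave 12. For AngII+HNG against AngII+MOTS-c, limma on log2(FPKM + 1) without a filter gave 2 rather than 6. The cause was not tested. Leaving out 1 library gave 6 to 10 and 4 to 7 of these genes.

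Of 565 refitted log2 fold changes, 32 changed sign, none of them called. With the block by library-name number, AngII+MOTS-c against AngII gave -0.11 for C1qa, -0.095 for C1qb and 0.094 for Cfb, and AngII+HNG against AngII+MOTS-c gave 0.075 for C1qb. Replicate 1 carries number 2 in AngII+MOTS-c and number 1 in the other groups. In both comparisons of AngII+MOTS-c, this block therefore took replicate 1 of both groups out of the estimate. These sign changes are thus not an effect of blocking alone. With replicates 2 and 3 summed, Cfb was 0.049 for AngII+MOTS-c against AngII, and C1qa was -0.014 for AngII+HNG against AngII+MOTS-c. Without replicate 4 of both groups, chosen after the values were seen, Cfd was 0.22 for AngII+HNG against AngII and C1qa was -0.13 for AngII+HNG against AngII+MOTS-c. Leaving out 1 library gave, for AngII+HNG against AngII, -0.13 to 0.24 for C1qa, -0.18 to 0.041 for C1qb, -0.10 to 0.50 for C3 and -0.64 to 0.089 for Cfd. For AngII+MOTS-c against AngII it gave -0.067 to 0.18 for C1qa, -0.039 to 0.25 for C1qb, -0.050 to 0.17 for C1s and -0.38 to 0.16 for Cfb. For AngII+HNG against AngII+MOTS-c it gave -0.20 to 0.18 for C1qa and -0.31 to 0.036 for C3. With at least 10 counts in every library, C3 could not be tested against AngII. By deviations from group means, 5 of the 27 most similar genes were shared with the list by plain values. For each of C1r, C1s, Serping1 and C1qc, 0 of 3 were shared. Low counts limit C3, Cfb and Cfd.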
